A study of Mus musculus with 44 samples.

Results

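Genes that mark the excitatory neurons of the forebrain were followed through ribosome-bound mRNA from mouse hippocampus, 9 in all: the homeobox genes *Emx1* and *Emx2*, the vesicular glutamate transporter genes *Slc17a7* and *Slc17a6*, and the transcription factor genes *Neurod2*, *Neurod6*, *Tbr1*, *Lhx2* and *Mef2c*. The members were chosen by symbol, and all 9 were found among the 55335 genes of the TRAP-seq table through their Ensembl identifiers in the GENCODE annotation of GRCm38. The TRAP-seq libraries came from male Emx1-NuTRAP mice, in which an Emx1-IRES-Cre knock-in switches on a reporter that tags ribosomes with EGFP, so that every mouse, sedentary or exercised, carried both alleles. ELE (early-life exercise) mice had a running wheel from postnatal day 21 to 41 and sedentary mice did not. RNA was taken either by SIT, the simultaneous isolation of nuclei and RNA from both hippocampi combined (4 ELE and 4 sedentary libraries), or by separate isolation from 1 hippocampus (3 ELE and 3 sedentary libraries from the left, and the same numbers from the right). Each library was 1 mouse. A second table held 24 columns of bulk RNA from left dorsal hippocampus of wild-type C57Bl/6J mice, some exercised for all or part of the same weeks and some trained in object location memory. Its columns could not be matched to those conditions and served as 1 reference. The names of 18 columns begin with WT, of 2 with LBN and of 4 with HC, and the labels do not explain the names of those other 6 columns.

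*Emx1* and *Emx2* encode homeodomain factors of the dorsal telencephalon, the part of the embryonic brain that gives rise to cortex and hippocampus. The excitatory neurons that form there pass through a programme of transcription factors, among them the basic helix-loop-helix factors encoded by *Neurod2* and *Neurod6*, the T-box factor encoded by *Tbr1*, the LIM homeodomain factor encoded by *Lhx2* and the MADS-box factor encoded by *Mef2c*, which also acts in some interneurons, in microglia and in the vascular lineage. Mature excitatory neurons load glutamate into vesicles with VGLUT1, encoded by *Slc17a7* and typical of cortex and hippocampus, or VGLUT2, encoded by *Slc17a6* and typical of thalamus and brainstem. Because Cre is expressed from the *Emx1* locus and the tag stays on in the descendants of a cell, TRAP-seq in these mice reports on cells that have ever expressed *Emx1*, which include astrocytes as well as excitatory neurons.

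The 20 TRAP-seq libraries held 45895097 to 65767802 counts, and the 24 wild-type columns 39856044 to 61636303, so that even the lowest member was counted 410 times or more in every TRAP library. Of the SIT libraries 3 stood apart, and they are the ones the study set aside, 1 ELE and 2 sedentary. In the sedentary pair, mitochondrial genes took 8.64% and 9.64% of the counts against at most 0.523% in the other 18 libraries, a list of 8 microglial genes summed to 212 and 222 CPM, the counts of a gene scaled to the size of its library, against 2.72 to 8.43 in the 17 kept libraries, and a list of 14 inhibitory neuron genes to 1357 and 1388 CPM against 164 to 540. In the ELE library set aside, the inhibitory neuron genes summed to 978 CPM and 8 striatal genes to 886 CPM, against 139 to 310 CPM for the striatal genes in the kept libraries. The labels call the cells neurons. Of the defining inhibitory genes, *Gad2* had a median of 6.08 CPM over the 20 libraries and *Slc32a1* 2.61, and the microglial *Tmem119* was at 0 in 4 libraries. The astrocyte genes *Slc1a2* and *Gfap* stood at medians of 2984 and 1640 CPM, so that mRNA of astrocyte marker genes was present in the captured fraction. The cells it came from were not tested, and the paper proposes that *Gfap* may reflect neural stem cells of the dentate gyrus. In bulk libraries such as these, fewer cells of a type and less RNA per cell cannot be told apart.

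**Figure D1:**
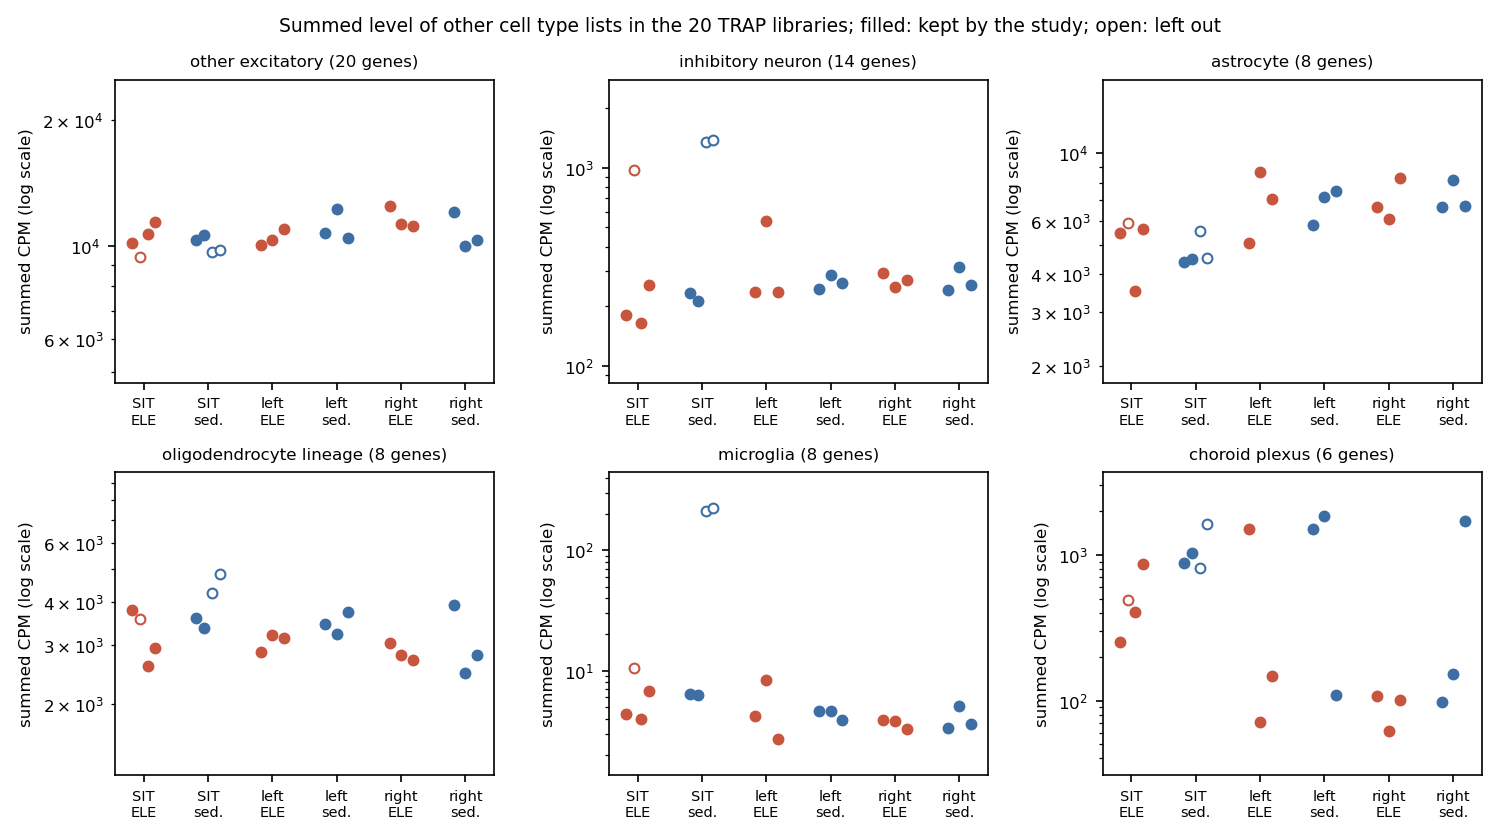
Summed CPM (log scale) of 6 lists of genes of other cell types in each of the 20 TRAP-seq libraries by group; filled points were kept by the study and open points were set aside. The open sedentary SIT points lie far above all others for microglial genes (212 and 222 CPM) and, with the open ELE point, for inhibitory neuron genes (978 to 1388 CPM).

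*Slc17a7* was by far the most abundant of the members. Levels of different genes were compared as CPM per kilobase of exonic length, medians over the 20 TRAP-seq libraries. On that scale *Slc17a7* reached 639, above 99.9% of the 30892 genes with a length and a count. *Neurod2* followed with 167 and *Neurod6* with 117, above 99.3% and 98.9% of genes. *Lhx2* stood at 46.01, *Emx2* at 11.8, *Tbr1* at 11.8, *Emx1* at 9.12, *Mef2c* at 6.17 and *Slc17a6* at 2.39 CPM per kilobase, a range that put even the least abundant member above 68.7% of genes. The order was fixed at the top: *Slc17a7* exceeded *Neurod2*, *Neurod6* exceeded *Lhx2* and *Lhx2* exceeded *Emx2* in 20 of 20 libraries with no overlap of their ranges. *Neurod2* exceeded *Neurod6* in 19 of 20 libraries, by a median factor of 1.38. *Emx2* and *Tbr1* were not separated, *Emx2* being higher in 12 of 20 libraries, and *Tbr1* lay above *Emx1* in 16 and *Emx1* above *Mef2c* in 18 of 20.

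**Figure D2:**
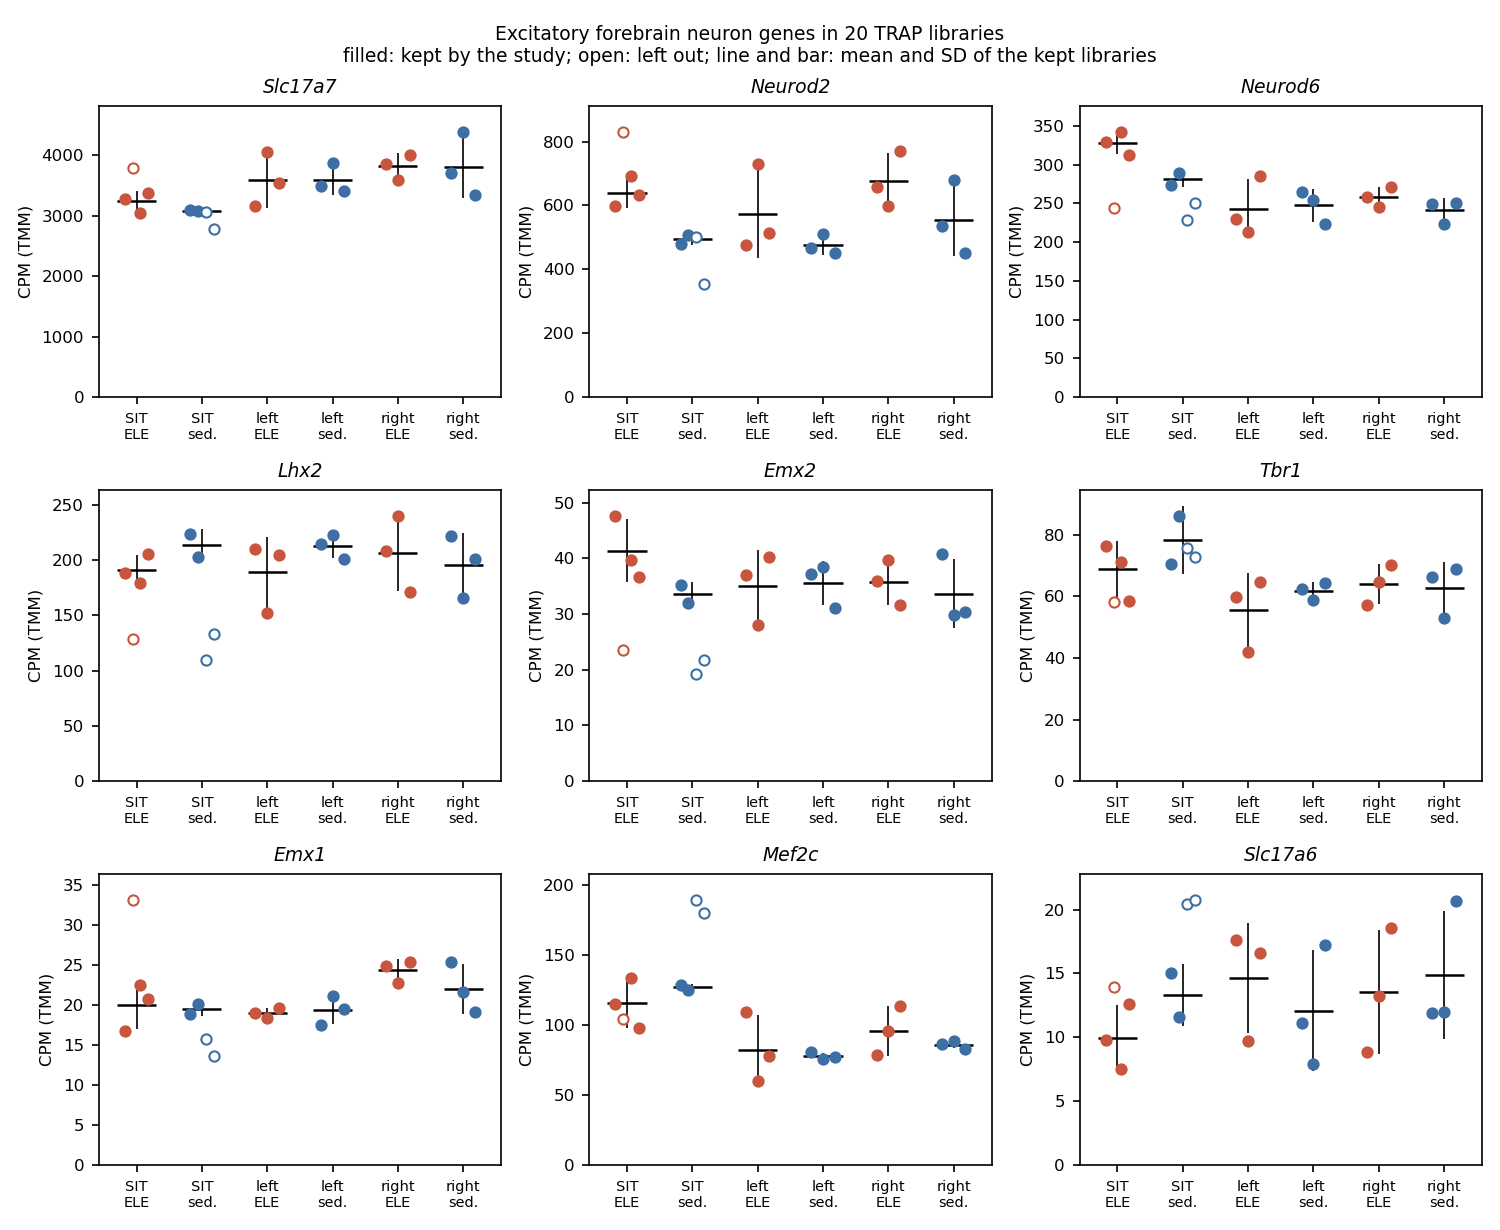
CPM of each member in the 20 TRAP-seq libraries by isolation, side and exercise, with the mean and SD of the kept libraries; each vertical axis starts at 0, red is ELE, blue is sedentary and open points were set aside by the study. *Neurod2* in the kept SIT libraries lies between 597 and 693 CPM in ELE and at 481 and 506 CPM in sedentary mice, and *Mef2c* is higher in SIT than in most separately isolated libraries.

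The median of *Slc17a7* was higher and that of *Slc17a6* lower in captured than in bulk RNA. The comparison with wild-type dorsal hippocampus asks how far the tagged fraction is enriched for each gene. It used the 34793 gene symbols present in both tables, scaled together, and gives medians and ranges with no test, because genotype, the part of the hippocampus dissected, the RNA fraction, the annotation, training and an added spike-in all go with the table and cannot be told apart. *Slc17a7* ranged from 2908 to 4655 CPM in the 20 TRAP-seq libraries around a median of 3693, and from 1220 to 2205 CPM in the 24 wild-type columns around a median of 1961. Every TRAP-seq library lay above every wild-type column, and the medians differed by a factor of 1.88. *Slc17a6* had a lower median in TRAP-seq, with a range of 8.17 to 21.97 CPM and a median of 13.6 in TRAP-seq and a range of 10.6 to 38.8 CPM and a median of 17.9 in wild type, and the ranges overlapped broadly. The ratio of *Slc17a7* to *Slc17a6* counts within a library, which needs no scaling between libraries, was 134 to 491 with a median of 270 in TRAP-seq and 52.2 to 181 with a median of 107 in wild type. The third transporter gene, *Slc17a8*, which was looked at after its values had been seen and marks a subset of inhibitory and serotonergic neurons, had a median of 0.25 CPM in TRAP-seq and 7.85 CPM in wild type.

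Among the transcription factor genes, *Lhx2* had the largest ratio. It ranged from 115 to 253 CPM in TRAP-seq with a median of 216 and from 68.3 to 99.2 CPM in wild type with a median of 89.3, a factor of 2.41. *Neurod2* ranged from 371 to 875 CPM in TRAP-seq with a median of 561 and from 175 to 364 CPM in wild type with a median of 299, a factor of 1.88. *Slc17a7*, *Neurod2* and *Lhx2* were thus the 3 of 9 members with every TRAP-seq library above every wild-type column, a property of 8.1% of the 14103 genes whose mean reached 1 CPM, and no member lay wholly below, as 6.84% of those genes did. The median log2 ratio of all genes was -0.01, and the median of the 9 members was 0.56. Against the 18 columns named WT alone, a choice made after seeing the data, the same 3 members lay above every column, beside 15.9% of genes, and no member's log2 ratio moved by more than 0.14.

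*Emx1* and *Emx2* were higher in TRAP-seq by factors of 1.47 and 1.64, with ranges that touched those of wild type. *Emx1* had a median of 21.2 CPM in TRAP-seq and 14.4 CPM in wild type, and 18 of 20 libraries exceeded the highest wild-type column. The exceptions were among the 3 libraries set aside: without these, *Emx1* joined the genes with no overlap, making 4 of 9 members against 12.9% of all genes, and with the 12 separately isolated libraries alone it was again 4 of 9, against 15% of genes. *Emx1* carries the Cre cassette in one group of mice and not in the other, so its value is from an altered locus in TRAP-seq. *Emx2* had a median of 37.9 CPM in TRAP-seq and 23.05 CPM in wild type, with 16 of 20 libraries above the highest wild-type column. Its exons share 264 bases with the antisense gene *Emx2os*, which the strand-aware counting stated in the study's methods separates. No other member shares exonic bases with a neighbour.

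*Neurod6* and *Tbr1* each had medians in the TRAP-seq and wild-type tables that differed by a factor of at most 1.21. *Neurod6* medians were 269 CPM in TRAP-seq and 223 in wild type, a factor of 1.21 with 4 of 20 libraries above the highest wild-type column. Among the 18 columns named WT the highest was 252 CPM, which is below the TRAP-seq median. *Tbr1* medians were 68.8 and 72.7 CPM, and its ranges almost coincided. *Neurod2* and *Neurod6*, close relatives with shared targets, therefore stood in a different proportion: the ratio of their counts was 1.41 to 3.44 with a median of 2.02 in TRAP-seq and 0.67 to 1.58 with a median of 1.301 in wild type. *Mef2c* had a ratio of 0.71, with 62.7 to 200 CPM and a median of 103 in TRAP-seq against 99.9 to 232 CPM and a median of 145 in wild type, and 9 of 20 libraries lay below the lowest wild-type column. Genes of other cell types that use *Mef2c* were lower in TRAP-seq too, with a median log2 ratio of -6.09 over the microglial list, -5.66 over 6 endothelial genes and -3.95 over the inhibitory list; their part in the *Mef2c* value was not tested.

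**Figure D3:**
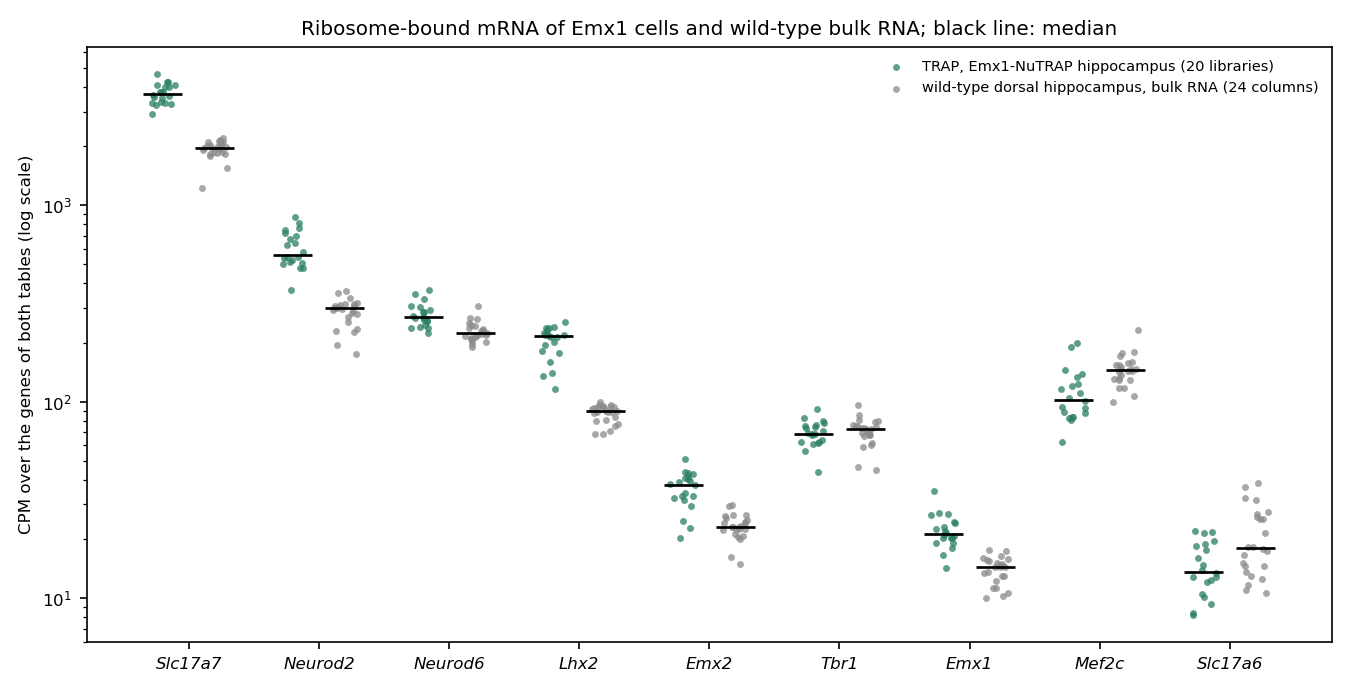
CPM (log scale) of the members over the genes of both tables, for the 20 TRAP-seq libraries (green) and the 24 wild-type columns (grey), with medians as black lines. *Slc17a7*, *Neurod2* and *Lhx2* show no overlap, whereas the median of *Mef2c* is 103 CPM in TRAP-seq and 145 CPM in wild type.

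Of a list of 20 further genes, drawn up for pallial and hippocampal excitatory neurons but also holding *Slc17a8*, which had the lowest ratio of the list, 3 had every TRAP-seq library above every wild-type column, beside 8.1% of all genes, and none the reverse, and the median log2 ratio of the 20 was -0.04. The 3 were *Zbtb20*, a factor of hippocampal field identity, with medians of 318 and 121 CPM, *Nrgn*, which encodes the calmodulin-binding postsynaptic protein neurogranin, with 4133 and 1812 CPM, and *Bcl11a*, a zinc-finger factor, with 210 and 139 CPM. *Camk2a*, a kinase gene of excitatory synapses, had medians of 4135 CPM in TRAP-seq and 5629 CPM in wild type. Of 8 astrocyte genes, *Gfap* and *S100b* lay above every wild-type column, by factors of 4.15 and 3.13, and the median log2 ratio of that list was 0.05.

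Between SIT and separate isolation *Mef2c*, *Neurod6* and *Tbr1* were higher and *Slc17a7* was lower in SIT at an adjusted p under 0.05, and the other 5 members did not pass that test. This comparison asks whether the way of isolating RNA alters what is read, and used edgeR's quasi-likelihood test over the 5 kept SIT and 12 separately isolated libraries with exercise as a covariate. By the rule in the study's methods, a gene was called where its unadjusted p was below 0.05 and its log2 fold change, in size, passed the fold change threshold drawn in the plot of log2 fold changes. Of the 9 members 1, *Mef2c*, was called, beside 14.4% of the 18843 genes tested, and 4 members passed an adjusted p of 0.05 beside 25.5% of genes. Homogenisation and the use of 1 or both hippocampi go with the isolation and cannot be told apart from it. The same holds for the origin of the mice, since no SIT mouse shared the first part of its number with a separately isolated mouse.

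*Mef2c* stood at 115, 134 and 98.2 CPM in the kept ELE SIT libraries and at 129 and 125 CPM in the kept sedentary ones. In separate isolation it stood at 109, 59.9 and 78.2 CPM in left ELE, 80.7, 75.8 and 77.4 in left sedentary, 78.4, 95.6 and 114 in right ELE and 86.7, 88.5 and 83.3 in right sedentary libraries. All sedentary SIT libraries thus lay above all sedentary separate ones, while the ELE libraries overlapped. The log2 fold change was 0.50 with a standard error (SE) of 0.11 (95% interval 0.27 to 0.73, adjusted p = 0.00194). In fits chosen once these values were known, it was 0.64 with an SE of 0.07 among sedentary libraries (adjusted p = 0.000426) and 0.38 with an SE of 0.18 among ELE libraries (adjusted p = 0.208). The summed microglial genes were at 3.96 to 6.81 CPM in the 5 SIT and 2.72 to 8.43 CPM in the 12 separate libraries, and the summed inhibitory genes at 164 to 255 and 235 to 540 CPM. Within the inhibitory list, however, 8 of 14 genes were called higher and 2 lower in SIT, with a median log2 fold change of 0.73, and of the 8 microglial genes tested, *C1qb* and *Aif1* were called higher; their part in the *Mef2c* value was not tested.

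*Neurod6* was higher in SIT, with 309 ± 28.0 CPM (SD, n = 5) against 247 ± 21.7 CPM (SD, n = 12), a log2 fold change of 0.32 (SE 0.06, adjusted p = 0.000713), which was 0.20 (adjusted p = 0.0510) with all 8 SIT libraries. *Tbr1* was higher too, at 72.6 ± 10.0 CPM against 61.0 ± 7.77 CPM, a log2 fold change of 0.27 (SE 0.09, adjusted p = 0.0410), but its adjusted p rose to between 0.0517 and 0.196 in 8 of the 17 fits that left out 1 library (the SIT mice NT6.303, TG7.4.1, NT6.305 and NT6.306 and the separately isolated mice TG7.3.1, TG7.3.4, TG9.1.1 and TG9.1.2). *Slc17a7* was lower in SIT, with 3174 ± 145 CPM against 3700 ± 348 CPM, a log2 fold change of -0.21 (SE 0.06, adjusted p = 0.0132). These shifts were smaller than the fold change threshold, though among ELE libraries alone, in the added fit, *Neurod6* was called at 0.39 (SE 0.09, adjusted p = 0.0185), beside 12.8% of genes. Among sedentary libraries alone *Neurod6* was not called, at 0.22 (SE 0.08, adjusted p = 0.0981), and *Slc17a7* had an adjusted p of 0.0918 among sedentary and 0.133 among ELE libraries. *Tbr1* was called in neither, at 0.34 (SE 0.11, adjusted p = 0.0497) among sedentary and 0.20 (SE 0.14, adjusted p = 0.420) among ELE libraries. The other 5 members had log2 fold changes between -0.27, for *Slc17a6*, and 0.12, for *Emx2*, all with 95% intervals that included 0. For *Lhx2* the interval was -0.17 to 0.19 and for *Neurod2* -0.20 to 0.22. Of the 20 other excitatory genes *Neurod1* and *Lhx9* were called higher in SIT and *Camk2a* and *Zbtb20* lower, and of 8 astrocyte genes 5 were called lower (*Slc1a2*, *Slc1a3*, *Aqp4*, *Aldh1l1* and *Gja1*) and none higher, their sum being 3514 to 5645 CPM in SIT and 5049 to 8696 CPM in separate isolation. The part of the astrocyte level in the values of the members was not tested.

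Exercise called none of the 9 members in SIT, in the left or in the right hippocampus, where 3.65%, 2.07% and 1.97% of genes were called. No gene passed an adjusted p of 0.05 in these edgeR fits, whereas with no filter on low counts the same test gave 105 genes in SIT, 0 on the left and 27 on the right. At an unadjusted p under 0.05 the count was 1000 genes in SIT, 699 on the left and 488 on the right, and DESeq2 gave 14, 0 and 14 genes at an adjusted p under 0.05. Genes of the choroid plexus, which can be carried along in the dissection, were called lower in ELE for 4 of 6 in SIT and 6 of 6 on the right and for 0 of 6 on the left. Their sum was 254 to 863 CPM in ELE and 882 to 1035 CPM in sedentary kept SIT libraries, 71.1 to 1508 and 110 to 1848 CPM on the left, and 61.6 to 107 and 97.8 to 1711 CPM on the right. The sedentary sums on the right were 97.8, 152 and 1711 CPM, so that only 1 library, from mouse TG9.2.3, stood far above the ELE libraries. Of 14 inhibitory neuron genes, *Dlx1*, *Dlx2* and *Pvalb* were called lower in ELE in SIT, *Npy* and *Erbb4* were called on the left, 1 in each direction, and *Slc32a1* was called higher on the right. Their sum was 164 to 255 CPM in ELE and 212 to 234 CPM in sedentary kept SIT libraries. On the right, the endothelial genes *Cldn5* and *Tek* and the microglial gene *Cx3cr1* were called lower in ELE, and the 6 endothelial genes summed to 1.47 to 4.14 CPM in ELE and to 1.81, 3.70 and 28.9 CPM in sedentary mice, the last in mouse TG7.3.3 alone. The part of these genes in the values of the members was not tested. In SIT, exercise also goes in part with the first part of the mouse number, since mice numbered TG7.4 were all ELE. Of the 20 other excitatory genes, *Prox1* was called higher and *Cux2* lower in SIT, *Pax6* lower on the left and none on the right.

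*Neurod2* had the lowest unadjusted p of the members in each of the 3 exercise comparisons. In SIT it stood at 597, 693 and 631 CPM in ELE and at 481 and 506 CPM in sedentary mice. On the left it stood at 475, 731 and 513 CPM in ELE and at 466, 512 and 450 CPM in sedentary mice, and on the right at 659, 597 and 770 CPM in ELE and at 536, 679 and 451 CPM in sedentary mice. The groups were apart in SIT and overlapped on either side. The log2 fold change, ELE minus sedentary, was 0.37 in SIT (SE 0.09, 95% interval 0.17 to 0.58, p = 0.00216, adjusted p = 0.905), 0.27 on the left (SE 0.15, p = 0.105) and 0.29 on the right (SE 0.14, p = 0.0752). Over both hemispheres it was 0.28 (SE 0.11, 95% interval 0.04 to 0.51, p = 0.0240, adjusted p = 0.902), in a comparison that called none of the members beside 1.97% of genes. A fit over the 17 kept libraries, chosen once these values were known, gave 0.31 (SE 0.08, 95% interval 0.13 to 0.48, p = 0.00168, adjusted p = 0.337), with 0 of 9 members called beside 2.31% of genes. The value missed the fold change threshold in each of these fits, and *Neurod2* was called, without an adjusted p under 0.05, when a single library was left out: 0.42 without the ELE mouse NT6.303 (4.33% of genes called), 0.41 without the sedentary mouse NT6.306 (3.38%), and 0.44 on the right without the sedentary mouse TG9.1.1 (3.53%). With 1 library left out, the lowest value was 0.32 in SIT and 0.16 on the right. On the left the value fell to 0.06 when the ELE mouse TG9.1.4, with 731 CPM, was left out. That library also had the highest sums of the 12 separately isolated ones for inhibitory neuron genes (540 CPM, the others at most 316), striatal genes (310 CPM, the others at most 225), astrocyte genes (8696 CPM) and microglial genes (8.43 CPM), and their part in its *Neurod2* value was not tested.

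*Emx2* and *Neurod6* also had no overlap between ELE and sedentary mice in SIT, as had 4036 of 18238 genes. *Emx2* stood at 47.6, 39.8 and 36.7 CPM in ELE and at 35.1 and 32.0 CPM in sedentary SIT libraries, a log2 fold change of 0.30 (SE 0.14, p = 0.0620, adjusted p = 0.910). *Neurod6* stood at 329, 342 and 313 CPM against 274 and 289 CPM, a log2 fold change of 0.22 (SE 0.09, p = 0.0317, adjusted p = 0.905). Neither was apart on the left or on the right, where the log2 fold changes were -0.02 and 0.09 for *Emx2* and -0.02 and 0.10 for *Neurod6*.

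The remaining 6 members had an unadjusted p above 0.05 in each of the 3 sets of mice. *Slc17a7* had log2 fold changes of 0.07 in SIT, 0.00 on the left and 0.01 on the right, and over both hemispheres its 95% interval was -0.15 to 0.15. *Slc17a6* had the widest intervals, from -0.95 to 0.11 in SIT around -0.42, which is past the fold change threshold in size (p = 0.107). It was called at -0.63 when the ELE mouse TG7.4.2 was left out, beside 6.1% of genes. Over the fits that left out 1 library, its value ran from -0.63 to -0.22. *Emx1* had 0.04, -0.02 and 0.15, *Lhx2* -0.16, -0.17 and 0.08, *Tbr1* -0.19, -0.15 and 0.03, and *Mef2c* -0.14, 0.09 and 0.16.

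The libraries set aside changed the SIT result. With all 8 SIT libraries 3 members were called, *Neurod2* at a log2 fold change of 0.58, *Mef2c* at -0.47 and *Slc17a6* at -0.63, none with an adjusted p under 0.05, beside 7.7% of genes. The sedentary pair set aside had the highest levels of both *Mef2c*, at 190 and 181 CPM, and *Slc17a6*, at 20.4 and 20.8 CPM, among the 8 SIT libraries. *Emx2* and *Lhx2* were low in all 3 libraries set aside, at 19.2 to 23.5 CPM and 110 to 133 CPM, against at least 28.0 CPM and 152 CPM in the 17 kept ones.

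**Figure D4:**
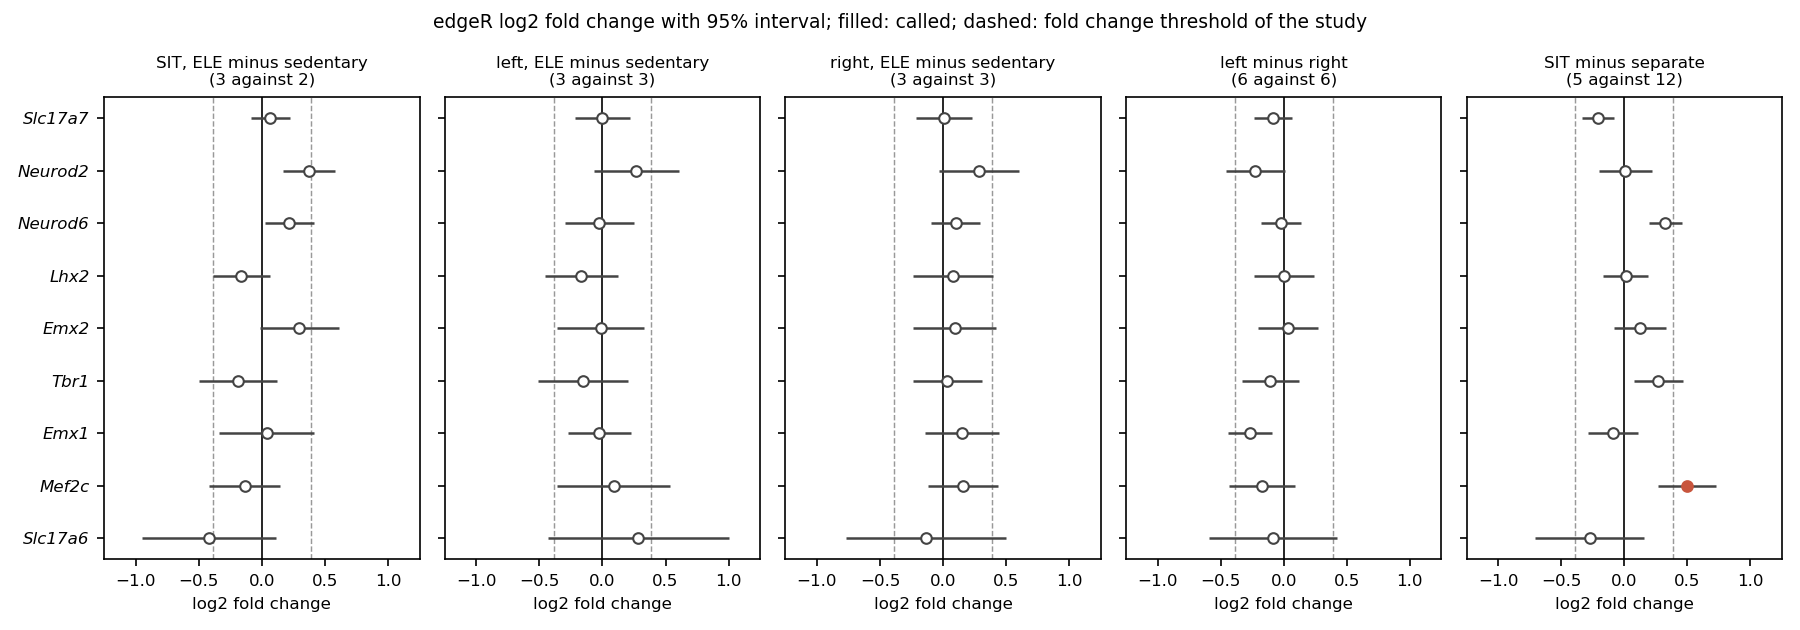
Log2 fold change of each member with its 95% interval (edgeR) for exercise in SIT, in the left and in the right hippocampus, for left minus right and for SIT minus separate isolation; dashed lines mark the fold change threshold and filled points are called. Only *Mef2c* in SIT against separate isolation, at 0.50, is filled, and *Neurod2* lies at 0.37, 0.27 and 0.29 in the 3 exercise comparisons.

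Left and right hippocampus were compared over the 12 separately isolated libraries with exercise as a covariate, and 0 of 9 members were called, beside 1.14% of 18283 genes. No gene passed an adjusted p of 0.05 by edgeR or by DESeq2, and 457 genes had an unadjusted p under 0.05 by edgeR. *Emx1* had the largest difference of the members, lower on the left, with a range of 17.6 to 21.11 CPM and a median of 19.3 on the left and a range of 19.1 to 25.4 CPM and a median of 23.9 on the right. The ranges overlapped, and the log2 fold change was -0.27 (SE 0.08, 95% interval -0.44 to -0.09, p = 0.00570, adjusted p = 0.9999). *Neurod2* followed with -0.23 (SE 0.11, p = 0.0565). Among genes of other cell types, *Flt1* and *Tek* of 6 endothelial genes were called lower on the left, and *Folr1* of 6 choroid plexus genes was called higher. Their part in the values of the members was not tested. *Emx2*, *Neurod6* and *Lhx2* had differences within 0.04 of 0, with intervals of -0.20 to 0.27, -0.18 to 0.14 and -0.24 to 0.24. The effect of exercise was not shown to differ between the sides for any member, with 0 of 9 called in the interaction beside 2.2% of genes, and the interval for *Neurod2* was -0.51 to 0.47.

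The members differed in how steady they were. Over all 20 libraries the SD of log2 CPM was lowest for *Slc17a7* (0.17, with a smaller SD in 18.3% of 14224 genes) and *Neurod6* (0.19) and highest for *Slc17a6* (0.44) and *Mef2c* (0.42). *Tbr1* had 0.22, *Emx1* 0.27, *Lhx2* 0.30, *Neurod2* 0.31 and *Emx2* 0.32, and the median of the members was 0.30 against 0.25 for all genes. Without the 3 libraries set aside these medians were 0.20 and 0.21. *Lhx2*, *Emx2* and *Mef2c* then fell to 0.18, 0.20 and 0.32, whereas *Slc17a6* had 0.42. Over all 20 libraries the spread of *Slc17a6* lay mostly within groups, where its median SD was 0.45 against 0.22 between group means. That of *Mef2c* lay between them, with 0.37 against 0.23 within, and the group means include the libraries set aside.

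Some members moved together from library to library. The correlations of log2 CPM over the 20 libraries are a description, since the libraries share scaling and the 3 set aside weigh heavily in them. *Emx2* and *Lhx2* were the closest pair, with r = 0.85, and kept 0.84 over the 12 separately isolated libraries. *Slc17a7* and *Neurod2* had 0.64 and 0.82, and *Tbr1* and *Mef2c* 0.70 and 0.62. *Slc17a7* and *Mef2c* ran opposite over all 20 libraries, with r = -0.72, but had -0.21 over the 12. The genes most like each member over the 20 libraries were *Pip5k1c* and *Fam171a1* for *Slc17a7* (r = 0.95 and 0.92), *Rxfp1* and *Vwc2l* for *Slc17a6* (0.92 and 0.87), *Thra* and *Akt2* for *Lhx2* (0.95 and 0.94), *Arhgef25* and *Ifngr2* for *Emx2* (0.92 and 0.90), *Vps29* and *Sdcbp* for *Neurod6* (0.91 and 0.90), *Dnm1l* and *Grb10* for *Mef2c* (0.90 and 0.90), *Pla2g2f* and *Gpatch2l* for *Neurod2* (0.89 and 0.88), *Hagh* and *Cdyl* for *Emx1* (0.84 and 0.83) and *Fbxo3* and *Mtus1* for *Tbr1* (0.82 and 0.80). Over the 17 kept libraries *Slc17a6* and *Rxfp1* had r = 0.93, while *Emx1* and *Hagh* had 0.50.

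In the genome all 9 members are protein-coding genes. In GRCm38 *Emx1* lies on chromosome 6 at 85187438 to 85204462 and *Neurod6* on the same chromosome at 55677822 to 55681263. *Slc17a7* lies on chromosome 7 at 45163949 to 45176142, and *Slc17a6* on the same chromosome at 51622006 to 51671119. *Emx2* lies on chromosome 19 at 59458372 to 59465357, *Neurod2* on chromosome 11 at 98325415 to 98329648, and *Mef2c*, whose exons span the largest length of the members at 15715 bases, on chromosome 13 at 83504034 to 83667080. *Tbr1* and *Lhx2* lie on chromosome 2, at 61802930 to 61814114 and 38339281 to 38369733. Reads were counted over all exons of each gene, untranslated regions included.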

How the data were processed

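TRAP-seq counts were deposited by the authors as whole-number counts per gene. Per the labels and the methods, reads from directional poly(A) libraries were aligned with STAR 2.7.3a to GRCm38, duplicates were removed with Picard 1.87 and reads over exons were counted by strand. The wild-type counts are deposited by gene symbol, from an annotation not given in the sources used here, and the methods give 1 counting procedure for all RNA-seq. The SIT libraries kept were identified from the mean normalized counts of the study's tables, among 24 subsets, 1 of which matched all 633 listed genes within 0.01%. Counts were normalized with TMM and filtered with filterByExpr in edgeR 4.0.16 (R 4.3.3), tested with its quasi-likelihood test and adjusted by the Benjamini-Hochberg method over all genes. SE is the absolute log2 fold change over the square root of F. Columns name mice, not the numbered replicates of the labels. The steps were tested on simulated counts. Replicate pairs differed by more than counting error. Alternatives were DESeq2 1.42.0, other size factors, no filter, all 8 SIT libraries, a block and leaving out each library. All members were named, with the 2 genes most correlated with each, and of the lists those called where 5 or fewer were, plus abundant ones; the 1 exception, *Slc17a8*, is given as such. Genes of the inhibitory and microglial lists named for the label check were chosen as defining. Members and lists were chosen with earlier results of these data known. For correlations and spread, log2 of CPM + 0.5 was used. The lists of Cajal-Retzius, neocortical layer, thalamic and neural progenitor genes, with 1, 0, 1 and 3 genes called between SIT and separate isolation, and the oligodendrocyte list, with 1, were read in the same way, as were the striatal, endothelial and choroid plexus lists, with 1, 0 and 0.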

Additional observations from a re-analysis of the deposited data

Results flagged for a closer look

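In the 4 sedentary SIT libraries, 1 library of the pair set aside, from mouse NT7.2.4, was below the other 3 in 2 members, by a gap that was large beside their narrow spread. *Slc17a7* stood there at 2776 CPM against 3066 to 3095 CPM in the others, and *Neurod2* at 354 CPM against 481 to 506 CPM. Its gap to the nearest library passed Dixon's 95% critical value for 4 samples in 2 of the 9 members tested in this group and in 0 of 9 in the ELE SIT group, where chance gives about 1 in 20. In the same library mitochondrial genes took 9.64% of the counts and the microglial genes summed to 222 CPM; their part in these values was not tested.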

How the results depend on the processing

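Of 117 recomputed counts of called members, ratios and spreads, 108 stayed within 1.5 times the reported value, and of 936 recomputed values of single members 928 kept their side of the threshold, 8 passed it and none of the called values changed sign, though 97 uncalled ones did. In SIT 0 members were called in the reported fit, 3 with all 8 libraries (7.7% of all genes called), 1 with the replicate block described next (5.09%) and 0 to 1 over the leave-one-out fits (1.82% to 6.1%), and in the right hippocampus 0 to 1 (1.71% to 3.53%). The deposited columns carry no replicate numbers of the labels, so the first part of the mouse number gave the block. On the left and right, libraries of 1 number did not all deviate together (r from -0.13 to 0.29, with 0.27 and 0.29 for TG7.3). A single ELE and sedentary pair per number and side cannot tell whether mice of a number shared anything beyond it. In SIT, where the block called *Emx2* at 0.49, this was not checked. Exercise called 1 member, *Neurod2*, beside 4% of genes, in a fit over all 20 libraries that was added after seeing the data. With an adjusted p under 0.05 in place of the study's rule, 4 members instead of 1 were called between SIT and separate isolation, and *Neurod6* and *Tbr1* had adjusted p of 0.0510 and 0.0583 with all 8 SIT libraries. The median spread of the members was 0.20 without the 3 libraries set aside and 0.30 with them. Counts of called genes over all genes moved by more than 1.5 times as follows. In SIT 665 became 1350 with all 8 libraries, 1086 without mouse TG7.4.2 and 355 without NT6.305. On the left 367 became 691 with no filter, 552 by DESeq2, and 945, 810 and 220 without TG7.3.2, TG9.2.2 and TG7.3.4. On the right 347 became 715 with no filter and 643 without TG9.1.1. Over both sides 360 became 961 with no filter, 615 by DESeq2, and 589 and 581 without TG7.3.2 and TG9.1.1. Between the sides 208 became 663 with no filter, 426 by DESeq2, and 437 and 325 without TG9.1.4 and TG9.2.3. In the interaction 414 became 1041 with no filter and 630, 718 and 635 without TG7.3.2, TG9.2.2 and TG9.2.1, and between isolations 2716 became 4215 with no filter. The lowest count of a member in any TRAP-seq library was 410.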
